A study of Mus musculus with 12 samples.

Results

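Cardiomyocytes of mdx:Utrn+/- mice were compared after PB1046 or saline, with 3 libraries in each group, the 6 mdx:Utrn+/- libraries out of 12 in the series. Members were all genes that reached 1 TPM (transcripts of a gene per 1000000, which corrects for gene length and library total) in at least 3 of the 12 libraries, 12798 of the 18530 genes listed. PB1046 is an analog of VIP, vasoactive intestinal peptide, built for sustained release. The mdx allele of Dmd carries a premature stop codon and leaves all cells of both groups without full-length dystrophin. All 6 mice also had a single working copy of Utrn, whose product utrophin can stand in for dystrophin. Both changes are in the germline, so they are not limited to cardiomyocytes, and neither group had dystrophin restored. Saline or PB1046 was given on alternate days between weeks 4 and 12 of age, and the hearts were collected at week 14. Of the doses given in the labels, 0.75 and 1.5 mg/kg, the treated libraries are marked as the high one, read here as 1.5 mg/kg. The other 6 libraries, from mdx mice with both copies of Utrn under saline or the same dose of PB1046, served as the comparison and shared the estimate of spread. Each library was taken as 1 mouse, which the labels do not state, so p-values measure only the spread between these libraries.

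VIP acts through the receptors encoded by Vipr1 and Vipr2, which stimulate adenylyl cyclase through Gs. The cyclic AMP made there activates protein kinase A (PKA), which phosphorylates the transcription factor CREB and many proteins of calcium handling. VIP is known to widen blood vessels and to dampen inflammatory signaling through NF-kB, and the series names both pathways as its subject.

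No gene passed the threshold for PB1046 minus saline. The test was limma on log2 values with Benjamini-Hochberg adjustment over 12798 genes: 0 genes (0%) had an adjusted p under 0.05, and the smallest adjusted p was 0.997. At an unadjusted p under 0.05 there were 264 genes (2.06%), of which 107 (0.836%) were higher and 157 (1.23%) lower with PB1046. Limma-voom on whole reads also gave 0 genes, with 214 at an unadjusted p under 0.05. The authors' deposited table gave 0 genes at a false discovery rate under 0.05, with 586 at an unadjusted p under 0.05 and Zbtb16 at the smallest rate (0.30). For the middle gene the 95% interval of the log2 difference, which is not adjusted, reached 0.56 to either side. Smaller differences could not be seen with 3 libraries a group, and after adjustment larger ones could be missed too. Zbtb16, at a log2 difference of -1.64, had a limma adjusted p = 0.997. All 3 PB1046 libraries lay on the same side of all 3 saline libraries for 727 genes (5.68%), 354 of them higher (2.77%) and 373 lower (2.91%). With labels dealt at random, 3 against 3 libraries lie apart with a probability of 0.1, so 5.68% is not a raised share. List shares of ranges apart given below are to be read against that probability as well. In any size of difference, 6027 genes (47.1%) were higher with PB1046, and the median log2 difference was -0.02. Without the scaling factors the median was 0.15, and the genes with ranges apart split into 658 higher and 136 lower. All genes share this shift, so a list median given below without the factors is to be read against 0.15 and not against 0. Genes below are therefore described by their values, as higher or lower in these libraries, and none of them passed.

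**Figure D1:**
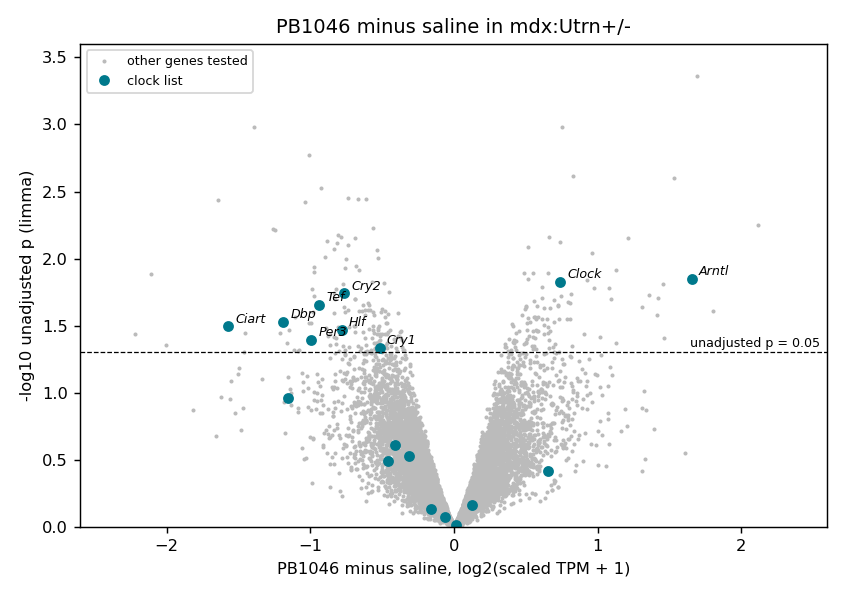
Each point is 1 of 12798 genes. The x axis is PB1046 minus saline in mdx:Utrn+/- in log2(scaled TPM + 1), the y axis is -log10 of limma's unadjusted p, and the dashed line marks an unadjusted p of 0.05. Clock list genes are drawn large, and 9 of 18 lie above the line, among them Arntl at 1.66 and Ciart at -1.57.

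Libraries held 7234100 to 25458194 reads recovered from the TPM steps, and the 6 described here held 7234100 to 25013287. Levels below are TPM divided by the library's scaling factor (0.827 to 1.18 in these 6), written as TPM. Saline replicate 3 stood apart from the other saline libraries: on the first principal component of the 6 libraries (39.8% of the variance) it was at 36.1, against -42.8 and -23.6. Without it 1154 genes were at an unadjusted p under 0.05 and 3754 had ranges apart, and the count past the threshold stayed at 0. Ranges lie apart more often when fewer libraries must separate, and such genes numbered 1326 to 3754 with a library left out. The probability of 0.1 for 3 against 3 libraries does not apply to these counts. Rn45s, the ribosomal RNA precursor, was 12208, 49334 and 1928 TPM in saline and 21522, 8465 and 1220 TPM in PB1046. Of the genes that define the label, Utrn was 4.00, 7.35 and 5.99 TPM in saline and 5.31, 8.43 and 6.44 TPM in PB1046, against means of 9.49 ± 1.41 and 11.4 ± 4.25 TPM in mdx under saline and PB1046 (SD, n = 3 each). Dmd, whose mdx transcript is still made, was 1.65 to 5.49 TPM in the 6 libraries. The cell type label was borne out by its markers: Myh6, the main adult myosin heavy chain, was 2918 to 6438 TPM, and Tnnt2, cardiac troponin T, was 13981 to 20002 TPM. The 12 cardiomyocyte markers summed to 140980 to 150120 TPM in saline and 105100 to 155590 TPM in PB1046. Defining markers of endothelium (Pecam1, 25.8 to 93.6 TPM), fibroblasts (Pdgfra, 1.66 to 11.6 TPM) and macrophages (Csf1r, 5.45 to 27.7 TPM) were above 0 in all 6 libraries.

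The circadian clock list held the largest share of small unadjusted p-values among the 46 lists described. The lists were written with earlier results of these data known, so this rank is a description and no independent support. In the core of the clock, Arntl (BMAL1) and Clock form a dimer that binds E-boxes and switches on the Per, Cry and Nr1d genes, whose products then hold it back, and Dbp, Tef and Hlf carry the rhythm to output genes through D-boxes. Of 18 tested members 9 had an unadjusted p under 0.05, 2 higher and 7 lower, against 2.06% of all genes, and 7 had ranges apart, against 5.68%. The list median was -0.44, with 5 members higher and 13 lower. No member passed the adjusted threshold, and the hour at which hearts were taken is not given in the sources used here. Its part in these values was not tested.

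The 2 members of the activating dimer were higher with PB1046. Arntl (chr7:113207465-113314126, mm10) was 1.22, 0.803 and 1.44 TPM in saline and 2.01, 10.3 and 7.98 TPM in PB1046. Each PB1046 library was above each saline library, replicate 1 by little and replicates 2 and 3 by far (log2 difference 1.66, 95% interval 0.40 to 2.91, limma adjusted p = 0.997). In the authors' deposited table Arntl had a log2 fold change of 2.54 with a p-value of 0.000192 and a false discovery rate of 1. Clock was 3.32, 4.32 and 5.10 TPM in saline and 6.12, 9.60 and 7.67 TPM in PB1046, again without overlap (log2 difference 0.74, 0.17 to 1.31). Npas2, a relative of Clock that can replace it, was 1.04, 0.419 and 2.30 TPM in saline and 0.680, 1.21 and 1.28 TPM in PB1046, with overlap.

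The D-box activators stood on the other side. Dbp was 67.6, 154 and 102 TPM in saline and 38.5, 44.6 and 50.3 TPM in PB1046 (log2 difference -1.19, -2.24 to -0.14). Tef was 107, 128 and 191 TPM in saline and 98.3, 62.3 and 59.2 TPM in PB1046 (-0.94, -1.72 to -0.16). Hlf was 5.62, 9.02 and 6.53 TPM in saline and 3.57, 3.38 and 3.93 TPM in PB1046 (-0.78, -1.49 to -0.07). For all 3 the ranges did not overlap, and PB1046 replicate 1 came closest to saline in Tef. Nfil3, the repressor that competes for D-boxes, was 17.4, 22.1 and 50 TPM in saline and 43.1, 20.1 and 15.7 TPM in PB1046, with overlap.

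Among the repressors of the dimer, the cryptochromes did not overlap and the period genes did. Cry2 was the tightest, at 19.4, 19.1 and 18.1 TPM in saline and 12.0, 8.77 and 11.6 TPM in PB1046 (log2 difference -0.77, -1.38 to -0.16). Cry1 was 7.18, 6.19 and 7.93 TPM in saline and 6.12, 3.70 and 4.36 TPM in PB1046 (-0.52, -1.02 to -0.01). Ciart, which encodes a repressor of the dimer also called CHRONO, was 4.98, 22.4 and 43.1 TPM in saline and 7.64, 3.40 and 5.17 TPM in PB1046 (-1.57, -2.98 to -0.16). Saline replicate 1 lay within the PB1046 range there, and the other saline libraries lay above it. Per3 was 9.88, 15.0 and 29.0 TPM in saline and 10.1, 6.57 and 6.87 TPM in PB1046 (-0.99, -1.94 to -0.05). Per2 was 6.72, 9.40 and 42.1 TPM in saline and 12.0, 3.91 and 3.90 TPM in PB1046 (-1.15, -2.61 to 0.30). Per1 was 20, 38.5 and 56.6 TPM in saline and 32.5, 29.2 and 17.2 TPM in PB1046 (-0.46, -1.43 to 0.52). In all 3 period genes saline replicate 3 was the highest of the 6 libraries.

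The nuclear receptors and remaining members overlapped between the groups. Nr1d1 (REV-ERB alpha, a repressor of Arntl) was 7.78, 18.7 and 10.6 TPM in saline and 6.74, 28.4 and 33.4 TPM in PB1046 (log2 difference 0.66, -0.92 to 2.23). Nr1d2 was 35.9, 62.0 and 109 TPM in saline and 38.8, 48.7 and 53.6 TPM in PB1046 (-0.41, -1.15 to 0.33). Bhlhe40 ranged from 19.6 to 35.5 TPM over the 6 libraries, and Bhlhe41 from 3.08 to 8.05 TPM. Usp2, a ubiquitin protease known to cycle with the clock and outside this list, was 125, 129 and 100 TPM in saline and 97.8, 51.7 and 41.2 TPM in PB1046, without overlap (-0.97, -1.75 to -0.19).

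How the clock members varied between single libraries bears on these counts. The list score, the mean of members' log2 levels centred over the 12 libraries, was -0.36, 0.08 and 0.54 in saline and -0.22, -0.33 and -0.23 in PB1046, so saline replicate 1 lay below all 3 PB1046 libraries. The 9 members at an unadjusted p under 0.05 became 0 without PB1046 replicate 2, 3 without PB1046 replicate 3, 3 without saline replicate 3 and 5 without saline replicate 2. Without the scaling factors there were 3. The list median stayed below 0 when each of the 6 libraries was left out, at -0.63 to -0.25.

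**Figure D2:**
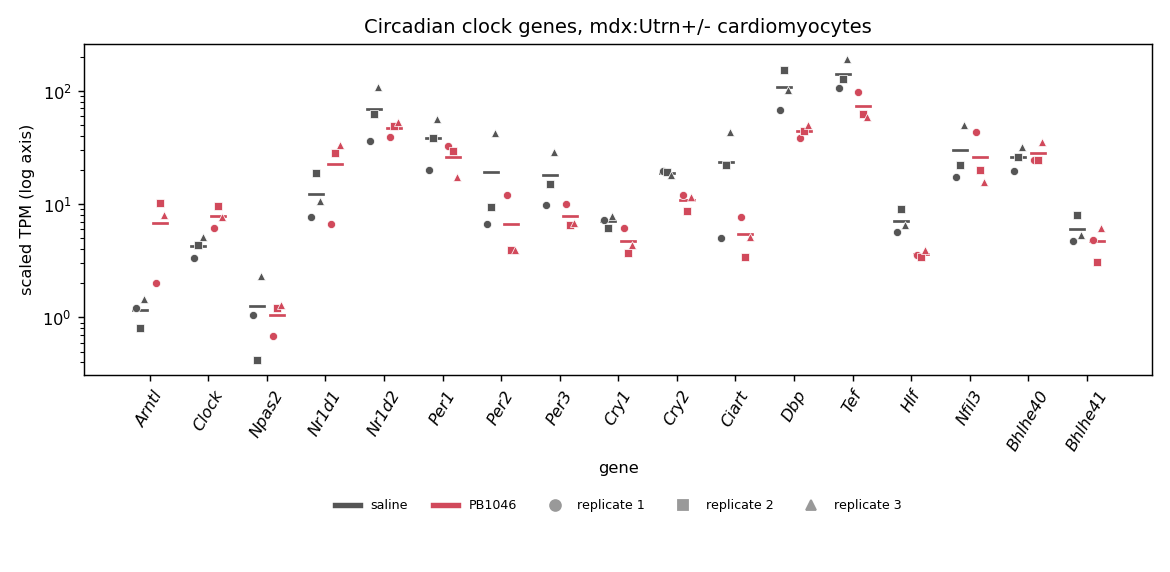
Scaled TPM on a log axis for 17 of the 18 clock list genes in the 3 saline and 3 PB1046 libraries of mdx:Utrn+/-, with the marker shape giving the replicate and the short line the group mean. Arntl and Clock lie higher in each PB1046 library, and Cry1, Cry2, Dbp, Tef and Hlf lie lower.

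Promoters of some clock members hold elements through which these factors are known to act. Motifs were searched on both strands in the 250 bases before each start in the RefSeq promoters of GRCm38.p6, where 15 of the 18 members had an entry. Some genes have several promoters there, and the 15 members had 20. The E-box CACGTG was in 6 of these 20 promoters, from 5 genes (Bhlhe41, Ciart, Cry1, Per1 and Tef), against 6.02% of 32851 promoters of the same length. The D-box TTANGTAA was in 1 of the 20 (Per3), against 2.06%, and the CREB element TGACGTCA in 1 (Hlf), against 1.55%. A match is a run of letters and says nothing of binding in these cells. The stretches below, on the gene's strand with the motif in capitals, are shown because their genes had among the lower levels with PB1046. They are Ciart with 3 E-boxes (chr3:95882255-95882356, minus strand, 116, 58 and 44 bases before the start), Tef (chr15:81802534-81802563, plus strand, 127 bases before), Cry1 (chr10:85185097-85185126, minus strand, 60 bases before) and Per3 with 2 D-boxes (chr4:151044804-151044882, minus strand, 205 and 158 bases before).
Ciart: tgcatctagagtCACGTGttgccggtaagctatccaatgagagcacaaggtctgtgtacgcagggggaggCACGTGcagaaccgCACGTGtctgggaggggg
Tef: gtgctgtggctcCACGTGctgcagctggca
Cry1: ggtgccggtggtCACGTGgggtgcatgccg
Per3: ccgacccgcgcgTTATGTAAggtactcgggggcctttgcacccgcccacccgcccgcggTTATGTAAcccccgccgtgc

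Among all genes, those with the smallest unadjusted p included the following. On the lower side, Zbtb16 (chr9:48654297-48835945), the zinc finger factor PLZF, which glucocorticoids are known to induce, was 9.24, 5.25 and 18.5 TPM in saline and 3.82, 1.60 and 2.28 TPM in PB1046. Each PB1046 library was below each saline library (log2 difference -1.64, -2.63 to -0.65, limma adjusted p = 0.997). The authors' deposited table gave it -2.11 with a p-value of 1.6e-05 and a false discovery rate of 0.30. Slc25a29, a mitochondrial carrier of basic amino acids, was 17.1, 15.8 and 11.7 TPM in saline and 8.05, 5.18 and 7.42 TPM in PB1046 (-1.01, -1.55 to -0.46). Adamtsl4, a secreted matrix protein, was 33.7, 27.8 and 37.1 TPM in saline and 18.5, 17 and 22.3 TPM in PB1046 (-0.74, -1.18 to -0.30). Neither of these overlapped. Rhobtb1 was 73.0, 62.9 and 159 TPM in saline and 57.6, 24.0 and 37.9 TPM in PB1046 (-1.24, -2.05 to -0.43). Rnf144b, a ubiquitin ligase, was 18.1, 10.1 and 24.4 TPM in saline and 8.89, 6.97 and 9.81 TPM in PB1046 (-0.89, -1.49 to -0.29). In both, saline replicate 3 was the highest library and saline replicate 2 the closest to PB1046.

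Further genes were lower without overlap. Glul, glutamine synthetase, was 534, 321 and 399 TPM in saline and 308, 137 and 252 TPM in PB1046 (log2 difference -0.89, -1.70 to -0.08). Mylk4, a myosin light chain kinase, was 54.3, 60.6 and 89.5 TPM in saline and 38.4, 22.5 and 41.7 TPM in PB1046 (-0.99, -1.76 to -0.21). Mt3, a metallothionein, was 5.31, 5.43 and 4.97 TPM in saline and 3.30, 2.57 and 2.09 TPM in PB1046 (-0.78, -1.31 to -0.26). None of the 3 overlapped between the groups, and saline was tightest in Mt3. Also lower without overlap were C8g, a complement component (means 6.01 ± 1.88 and 2.67 ± 0.79 TPM, SD, n = 3 each), the noncoding RNA Crnde (10.5 ± 1.01 and 6.52 ± 1.00 TPM) and Sema4b, a semaphorin (6.96 ± 0.76 and 3.61 ± 1.12 TPM). Klhl38, a muscle gene of the Kelch family, was 12.9 ± 3.84 and 6.70 ± 1.71 TPM (log2 difference -0.83, -1.41 to -0.26). Its ranges touched, with saline replicate 3 (8.62 TPM) just under PB1046 replicate 3 (8.66 TPM).

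On the higher side, Grip2 (chr6:91761510-91807393), a scaffold protein with PDZ domains, was 3.39, 8.51 and 8.67 TPM in saline and 28.4, 24.3 and 12.2 TPM in PB1046 (log2 difference 1.53, 0.66 to 2.41). The authors' deposited table gave Grip2 1.67 with a p-value of 4.9e-05 and a false discovery rate of 0.456. Hspa12a, a distant member of the HSP70 family, was 4.75, 5.96 and 4.70 TPM in saline and 10.3, 10.7 and 8.75 TPM in PB1046 (0.83, 0.36 to 1.31). Both were higher in each PB1046 library. Zbtb12, a zinc finger factor, was 2.37, 2.23 and 2.09 TPM in saline and 4.93, 4.25 and 4.18 TPM in PB1046 (0.75, 0.37 to 1.14). Ddx10, an RNA helicase of ribosome assembly, was 3.35, 3.21 and 4.12 TPM in saline and 5.75, 6.75 and 6.09 TPM in PB1046 (0.66, 0.22 to 1.10). Mylpf, the myosin light chain of fast skeletal muscle, was 0.902, 0.773 and 1.44 TPM in saline and 2.59, 2.22 and 2.29 TPM in PB1046 (0.74, 0.24 to 1.24). These 3 were apart by more than the spread within either group. Trp53i11, a target of p53, was 8.80, 6.58 and 16.1 TPM in saline and 19.3, 54.2 and 22.5 TPM in PB1046 (1.46, 0.33 to 2.59), with PB1046 replicate 2 far above the others. Vwa3a was 2.44, 1.66 and 3.17 TPM in saline and 6.17, 11.1 and 3.58 TPM in PB1046 (1.12, 0.29 to 1.96).

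**Figure D3:**
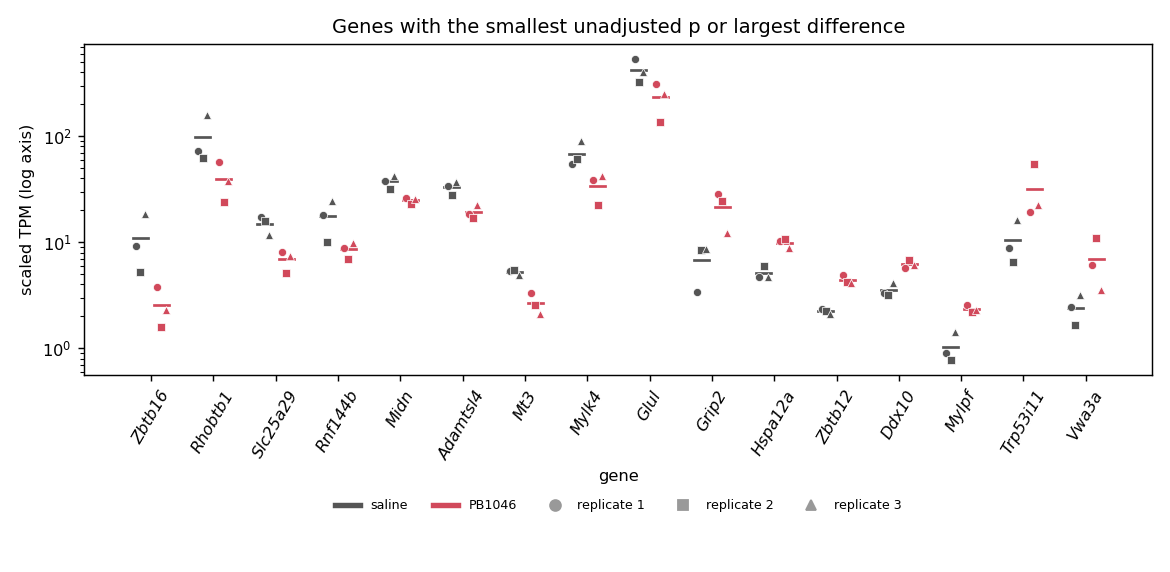
Scaled TPM on a log axis for 16 genes with small unadjusted p or large differences in mdx:Utrn+/-. Marker shape gives the replicate and the short line the group mean of 3 libraries. The first 9 genes lie lower and the last 7 higher in each PB1046 library, by gaps that are small in Vwa3a and wide in Zbtb12.

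Receptors of the drug were scarce in these libraries. Vipr1 rested on 24, 5 and 8 reads in saline and 3, 19 and 20 reads in PB1046, which is 0.667, 0.298 and 0.118 TPM and 0.109, 0.383 and 0.307 TPM. Vipr2 rested on 6, 2 and 7 reads in saline and 4, 8 and 6 reads in PB1046, at 0.241, 0.172 and 0.149 TPM and 0.210, 0.234 and 0.133 TPM. Both overlapped between the groups and stayed below the filter of 1 TPM. In a fit without the filter their log2 differences were -0.09 (-0.49 to 0.31) and 0.01 (-0.20 to 0.21). Adcyap1r1, the receptor that prefers the related peptide PACAP, was 7.22, 9.30 and 0.983 TPM in saline and 6.99, 3.21 and 1.76 TPM in PB1046. The partner proteins Ramp1 and Ramp2, which modify such receptors, were 4.69 to 18.8 TPM and 29.1 to 84.8 TPM over the 6 libraries, with overlap in both.

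As a list, genes of the cyclic AMP, PKA and CREB route leaned little to either side, with single components from -0.53 to 0.66. Of 45 tested components 21 were higher and 24 lower, with a median log2 difference of -0.02 (0.17 without the scaling factors and 0.02 by quantile normalization). Of these 2 had an unadjusted p under 0.05 (4.44%, against 2.06% of all genes), and 3 had ranges apart (6.67%, against 5.68%). Pde8a, a phosphodiesterase that breaks down cyclic AMP, was 3.40, 3.48 and 7.86 TPM in saline and 8.67, 7.66 and 7.31 TPM in PB1046 (0.66, 0.01 to 1.32). Creb3l2, a CREB-like factor of the endoplasmic reticulum, was 3.86, 5.45 and 2.72 TPM in saline and 2.30, 2.83 and 2.06 TPM in PB1046 (-0.53, -1.01 to -0.05). Both overlapped, through saline replicate 3. Creb1 itself was 3.85, 3.95 and 4.47 TPM in saline and 4.55, 7.04 and 4.89 TPM in PB1046, without overlap (0.33, -0.12 to 0.79). Pkig, an inhibitor of PKA, was 435, 487 and 337 TPM in saline and 320, 251 and 343 TPM in PB1046 (-0.46, -0.93 to 0.01). The catalytic subunit Prkaca was 89.1 to 159 TPM, the regulatory subunit Prkar1a 222 to 366 TPM, and Gnas, which encodes the Gs alpha subunit, 135 to 210 TPM, all with overlap.

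Adcy8, an adenylyl cyclase stimulated by calcium and calmodulin, was below the filter and is named here after its values were seen. It had 2, 1 and 4 reads in saline and 16, 15 and 24 reads in PB1046. In TPM that is 0.0540, 0.0579 and 0.0573 against 0.564, 0.294 and 0.358. The ranges did not overlap. In mdx, Adcy8 was 0.518, 0.213 and 0.391 TPM under saline and 0.373, 0.258 and 0.0773 TPM under PB1046, with overlap (log2 difference without the filter -0.15). Without the filter the log2 difference in mdx:Utrn+/- was 0.41 (0.16 to 0.65, limma adjusted p = 1), and the authors' deposited table gave 2.77 with a p-value of 0.000308 and a false discovery rate of 1.

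CREB target genes split, with 9 of 25 higher and a median of -0.09. It took the other sign without PB1046 replicate 3 (0.11), saline replicate 2 (0.09) or saline replicate 3 (0.07). Without the scaling factors it was 0.10, against 0.15 for all genes. Cebpb, a factor of acute-phase and metabolic genes, was the only target at an unadjusted p under 0.05 (4%, against 2.06% of all genes). It was 62.8, 29.6 and 48.6 TPM in saline and 34.4, 14.6 and 22.0 TPM in PB1046 (log2 difference -0.98, -1.70 to -0.25). Saline replicate 2 lay within the PB1046 range. Immediate early genes varied between the PB1046 libraries. Egr1 was 30.5, 36 and 37.6 TPM in saline and 119, 82.8 and 25.2 TPM in PB1046 (0.85, -0.24 to 1.95). Fos was 45.2, 77.6 and 117 TPM in saline and 175, 88.0 and 47.8 TPM in PB1046, and Junb was 68.0, 96.0 and 75.8 TPM in saline and 198, 119 and 61.7 TPM in PB1046. In all 3, PB1046 replicate 1 was the highest of the 6 libraries. The 22 immediate early genes had a median of 0.10 (-0.02 without PB1046 replicate 1 or 2, and -0.01 without saline replicate 1), with 14 higher and 0 at an unadjusted p under 0.05.

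The NF-kB lists leaned little to either side too, with single components from -0.74 to 0.37 and targets from -1.11 to 0.77. Of 33 pathway components 14 were higher, with a median of -0.01 (0.15 without the scaling factors) and 0 at an unadjusted p under 0.05. The subunit genes Rela (17.4 to 23.6 TPM) and Nfkb1 (13.1 to 19.4 TPM) and the inhibitor Nfkbia (30.8 to 55.3 TPM) overlapped between the groups. Tnfrsf1a, the main receptor of tumor necrosis factor, was 23.9, 21.3 and 20.9 TPM in saline and 26.0, 35.8 and 25.3 TPM in PB1046 (log2 difference 0.37, -0.13 to 0.86), and was the only component with ranges apart (3.03%, against 5.68% of all genes). Of 37 target genes 15 were higher, with a median of -0.09 (0.09 without the scaling factors, 0.20 without PB1046 replicate 3 and 0.06 without saline replicate 2). Only 1 had an unadjusted p under 0.05 (2.7%, near the 2.06% of all genes). That gene, Ier3, an early response gene linked to cell survival, was 231, 149 and 104 TPM in saline and 142, 37.9 and 63.5 TPM in PB1046 (-1.11, -2.22 to -0.01). Gadd45b, a stress response gene, was 8.71, 10.4 and 15.2 TPM in saline and 31.8, 13.8 and 17.3 TPM in PB1046 (0.77, -0.04 to 1.58). The cytokine Il1b was 6.26, 4.18 and 3.54 TPM in saline and 4.01, 3.72 and 1.36 TPM in PB1046 (-0.54, -1.34 to 0.26). The chemokine Ccl2 was 58.1, 89.1 and 9.50 TPM in saline and 68.5, 28.3 and 11 TPM in PB1046, a spread within each group wider than the step between them.

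Endothelial genes were higher with PB1046 on average, and 1 library carried much of it. Of 20 endothelial markers 19 were higher (against 47.1% of all genes), with a median of 0.50. The list score was -0.53, -0.69 and -0.08 in saline and -0.41, 0.85 and -0.17 in PB1046. Without PB1046 replicate 2 the median was 0.13. More endothelial cells and more endothelial RNA per cell cannot be told apart in such libraries. Cldn5, the tight junction claudin of endothelium (chr16:18776847-18778262), was 21.8, 10.1 and 15.2 TPM in saline and 52.4, 62.0 and 21.9 TPM in PB1046 (log2 difference 1.41, 0.20 to 2.63). The ranges were apart, with saline replicate 1 just under PB1046 replicate 3. Kdr, the main VEGF receptor, was 18.3, 16.2 and 19.8 TPM in saline and 15.7, 84.8 and 44.9 TPM in PB1046 (1.08, -0.07 to 2.24). Cdh5, vascular cadherin, was 30, 27.6 and 50.1 TPM in saline and 34.7, 113 and 57.7 TPM in PB1046 (0.80, -0.35 to 1.94). Outside the list, Cd93, a lectin-like endothelial receptor, was 17.5, 10.3 and 17.8 TPM in saline and 18.4, 48.5 and 26.3 TPM in PB1046 (0.91, 0.07 to 1.75).

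Vascular signaling genes followed the same libraries. Of 25 genes of the VEGF, angiopoietin and Notch routes 21 were higher, with a median of 0.38 (0.12 without PB1046 replicate 2 and -0.03 with the endothelial score as a covariate). Kdr is in both lists, so the covariate removes part of this difference by construction. Of the 25, 1 was at an unadjusted p under 0.05 (4%, against 2.06% of all genes) and 3 had ranges apart (12%, against 5.68%). Angpt2, the angiopoietin that loosens vessels, was 0.650, 0.820 and 0.487 TPM in saline and 0.898, 1.78 and 1.44 TPM in PB1046 (log2 difference 0.51, 0.04 to 0.97), without overlap. Aplnr, the apelin receptor, was 8.56, 9.42 and 6.99 TPM in saline and 5.38, 46.3 and 21.4 TPM in PB1046 (1.03, -0.25 to 2.30). Of the nitric oxide and natriuretic peptide genes 10 of 15 were higher (median 0.20). Gucy1a3, a subunit of the nitric oxide receptor, was 2.54, 2.07 and 1.82 TPM in saline and 3.09, 3.38 and 3.24 TPM in PB1046 (0.44, -0.04 to 0.91), without overlap. The basement membrane collagen Col4a2 was 47.3, 55.7 and 55.6 TPM in saline and 55.8, 106 and 70.4 TPM in PB1046 (0.50, -0.08 to 1.08). Lpl, the lipase that vessels hold for muscle, ran the other way at 11666, 10862 and 5390 TPM in saline and 7791, 2945 and 5810 TPM in PB1046 (-0.79, -1.86 to 0.29), with overlap.

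Macrophage and matrix genes were lower on average, and a single library carried the macrophage difference. All 18 macrophage markers were lower, with a median of -0.48 and 2 with ranges apart (11.1%, against 5.68%). Their score was 1.37 in saline replicate 1, against -0.33 and -0.39 in the other saline libraries and -0.57, -0.41 and 0.18 in PB1046, and the median was 0.14 without saline replicate 1. Ptprc, the leukocyte phosphatase CD45, was 6.56, 3.97 and 3.10 TPM in saline and 1.57, 2.08 and 2.74 TPM in PB1046 (log2 difference -0.79, -1.66 to 0.07). Cd163, a scavenger receptor of resident macrophages, was 3.91, 1.56 and 1.90 TPM in saline and 1.11, 0.836 and 1.19 TPM in PB1046 (-0.70, -1.49 to 0.09). Csf1r was 27.7, 7.01 and 5.76 TPM in saline and 5.45, 7.39 and 9.25 TPM in PB1046, where saline replicate 1 alone was high and the other saline libraries overlapped with PB1046. Of 37 extracellular matrix genes 35 were lower (median -0.38, and -0.72 to -0.10 with a library left out), 0 of them at an unadjusted p under 0.05. The matrix score was 0.46, 0.54 and -0.58 in saline and 0.25, -0.28 and -0.73 in PB1046, with overlap. Ctgf, a matricellular protein induced by TGF-beta, was 305, 161 and 131 TPM in saline and 114, 54.8 and 148 TPM in PB1046 (-0.92, -2.10 to 0.26). Fn1, fibronectin, was 55.1, 68.4 and 24.9 TPM in saline and 56.1, 27.8 and 13.5 TPM in PB1046 (-0.69, -1.96 to 0.58). All 14 fibroblast markers were lower (median -0.31, and -0.02 without saline replicate 1), with a score of 0.52, 0.25 and -0.65 in saline and 0.07, -0.49 and -0.54 in PB1046. Their part in the matrix values was not tested.

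**Figure D4:**
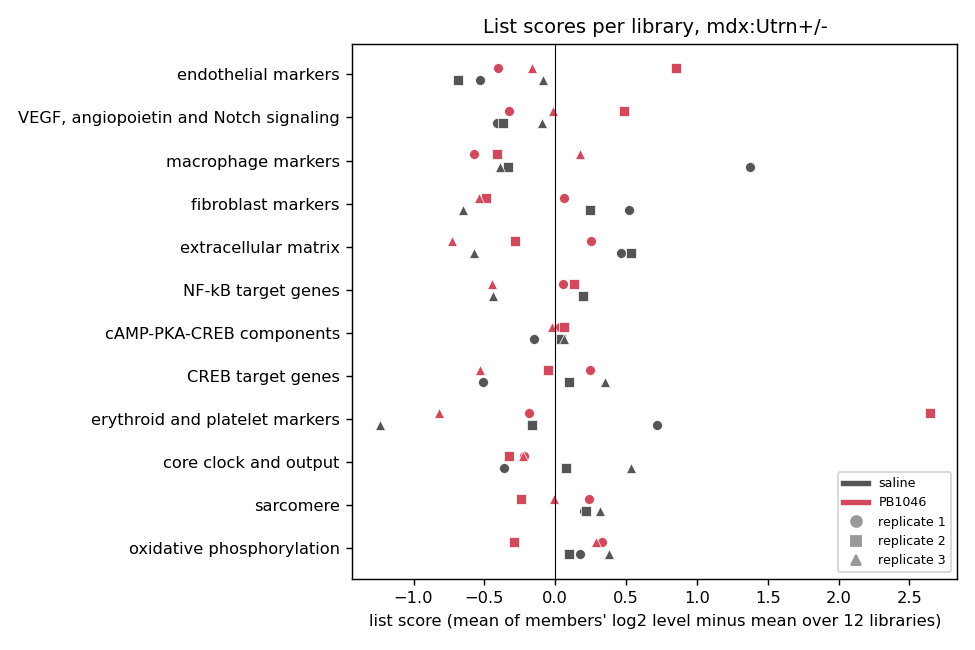
List scores (mean of members' log2 levels minus their mean over 12 libraries) for 12 gene lists in the 3 saline and 3 PB1046 libraries of mdx:Utrn+/-. PB1046 replicate 2 is high for endothelial (0.85) and erythroid (2.65) markers and saline replicate 1 for macrophage markers (1.37), and the groups overlap in every list drawn.

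Contractile and metabolic lists had small median differences, and some single genes differed by more. Of 20 sarcomere genes 17 were lower, with a median of -0.15 that turned to 0.06 by quantile normalization. Without the scaling factors it was 0.05, against 0.15 for all genes. Tcap, the titin cap of the Z-disc, was the only sarcomere gene at an unadjusted p under 0.05 (5%, against 2.06% of all genes). It was 18411, 25777 and 10163 TPM in saline and 15368, 5970 and 4252 TPM in PB1046 (log2 difference -1.21, -2.33 to -0.09). Myh7, the slow myosin heavy chain that returns under stress, was 224, 156 and 226 TPM in saline and 177, 90.3 and 101 TPM in PB1046 (-0.76, -1.62 to 0.10). The natriuretic peptide Nppa was 6122, 1370 and 2423 TPM in saline and 2420, 574 and 2449 TPM in PB1046 (-0.86, -2.76 to 1.04). All 3 overlapped. Of 13 membrane repair genes 5 were higher and 8 lower, with a median of -0.21. Against that median, Dysf, dysferlin, was higher and the only member at an unadjusted p under 0.05 (7.69%, against 2.06% of all genes). It was 16.2, 23.6 and 24.6 TPM in saline and 31.4, 36 and 26.3 TPM in PB1046 (0.53, 0.06 to 1.00), without overlap. In the dystrophin-glycoprotein complex 3 of 15 genes were higher, with a median of -0.12 (0.01 without the scaling factors), and Cav3, the muscle caveolin, was 306, 256 and 189 TPM in saline and 233, 131 and 171 TPM in PB1046 (-0.50, -1.10 to 0.11). Jph2, which ties the calcium store to the surface membrane, was 406, 299 and 236 TPM in saline and 247, 159 and 231 TPM in PB1046 (-0.55, -1.15 to 0.05).

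Of 42 oxidative phosphorylation genes 31 were lower, at a median of -0.12 (0.08 without the scaling factors, 0.05 by quantile normalization, 0.10 without PB1046 replicate 2 and 0.02 without saline replicate 3), with 0 at an unadjusted p under 0.05 and 0 with ranges apart. Of 30 fatty acid oxidation genes 18 were higher, with a median of 0.06 (0.28 without PB1046 replicate 2, and -0.06 without PB1046 replicate 3). In glycolysis 16 of 21 were lower (median -0.19, with 0.00 without the scaling factors and -0.02 without PB1046 replicate 2). Hk2, hexokinase 2, was 120, 119 and 120 TPM in saline and 101, 56.5 and 97.5 TPM in PB1046 (log2 difference -0.54, -1.20 to 0.13), without overlap. Slc2a1, the glucose transporter GLUT1, was 19.5, 17.9 and 13.3 TPM in saline and 8.97, 6.49 and 14.4 TPM in PB1046 (-0.76, -1.52 to 0.01). Of 18 oxidative stress genes 5 were higher and 13 lower (median -0.10, and 0.09 without the scaling factors). Nqo1, a detoxifying enzyme under NRF2, was the only one at an unadjusted p under 0.05 (5.56%, against 2.06% of all genes). It was 94.8, 104 and 81.6 TPM in saline and 58.7, 45.6 and 64.6 TPM in PB1046 (-0.73, -1.38 to -0.07), without overlap. Of 23 TGF-beta signaling genes 12 were higher and 11 lower (median 0.01, and -0.04 without PB1046 replicate 2). Only Tgfbr3, a TGF-beta co-receptor, was at an unadjusted p under 0.05 (4.35%, against 2.06% of all genes). It was 14.0, 16.7 and 15.4 TPM in saline and 10.8, 8.32 and 10.4 TPM in PB1046 (-0.60, -1.10 to -0.09), also without overlap.

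Glucocorticoid-responsive genes, of which Zbtb16 is one, did not move as a block. Of 16 tested 6 were higher and 10 lower, with a median of -0.38 (-0.13 without saline replicate 3). Tsc22d3, the glucocorticoid-induced leucine zipper, was 146, 109 and 107 TPM in saline and 102, 70.3 and 54.3 TPM in PB1046 (log2 difference -0.70, -1.45 to 0.05), without overlap. Sgk1, a kinase induced by steroids, lay on the other side at 19.3, 24.2 and 31.2 TPM in saline and 35.6, 63.4 and 38.0 TPM in PB1046 (0.83, -0.17 to 1.82), also without overlap. Fkbp5, the co-chaperone often read as a marker of the hormone, was 10, 4.81 and 31.2 TPM in saline and 15.8, 4.91 and 3.91 TPM in PB1046 (-0.69, -2.06 to 0.67).

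The PB1046 response of mdx:Utrn+/- was then set beside that of mdx, which has its own saline libraries but shares the scaling and the estimate of spread. Across the 12798 genes the log2 differences of the 2 genotypes had a Pearson r of -0.04, and 6538 genes (51.1%) had the same sign. For the difference between the responses, 0 genes passed (limma smallest adjusted p = 0.999), with 291 at an unadjusted p under 0.05 (2.27%). Ranges were apart in both genotypes but in opposite directions for 20 genes (0.156%). With predicted genes, small RNA genes and pseudogenes left out, the smallest p for the difference between the responses belonged to Midn, Hspa12a, Spsb1, Foxo3 and Grip2. In mdx, Grip2 was 12.4, 16.9 and 19.6 TPM under saline and 11.4, 14.5 and 5.91 TPM under PB1046, so its response differed by 2.16 (0.93 to 3.40, adjusted p = 0.999). In the same libraries Hspa12a was 8.12, 11.3 and 13.8 TPM under saline and 8.36, 9.37 and 5.99 TPM under PB1046 (difference 1.26, 0.60 to 1.93). For Hspa12a the 3 mdx:Utrn+/- saline libraries were the lowest of the 12, and for Grip2 they were lower than the other libraries except mdx PB1046 replicate 3.

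Several lists had medians of opposite sign in the genotypes, a comparison given here without a test. The median in mdx was 0.42 for macrophage markers, 0.54 for extracellular matrix, 0.49 for fibroblast markers, 0.37 for NF-kB targets and 0.90 for glucocorticoid-responsive genes, against -0.48, -0.38, -0.31, -0.09 and -0.38 in mdx:Utrn+/-. Of these, the mdx:Utrn+/- median had the sign of mdx for macrophage markers without saline replicate 1 (0.14). For NF-kB targets it had that sign without PB1046 replicate 3 (0.20), without saline replicate 2 (0.06) or with Rn45s as a covariate (0.06). Without the scaling factors the NF-kB target median was 0.09, against 0.15 for all genes. The endothelial median was -0.02 in mdx against 0.50. Clock genes leaned the same way in both genotypes by their median, with 14 of 18 lower and a median of -0.25 in mdx. Fewer members stood apart there: 1 had an unadjusted p under 0.05 in mdx, against 9 in mdx:Utrn+/-. Ranges were apart for 0 members higher and 1 lower in mdx, against 2 higher and 5 lower in mdx:Utrn+/-. Arntl and Clock, higher without overlap in mdx:Utrn+/-, were therefore not higher without overlap in mdx. In mdx, Dbp was 139 ± 47.3 TPM under saline and 67.9 ± 56.7 TPM under PB1046 (SD, n = 3 each, log2 difference -1.27), close to the -1.19 of mdx:Utrn+/-. Cry1 differed in sign, at 5.83 ± 1.08 and 7.87 ± 2.25 TPM in mdx (0.36), and the difference between the responses was -0.87 (limma adjusted p = 0.999).

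**Figure D5:**
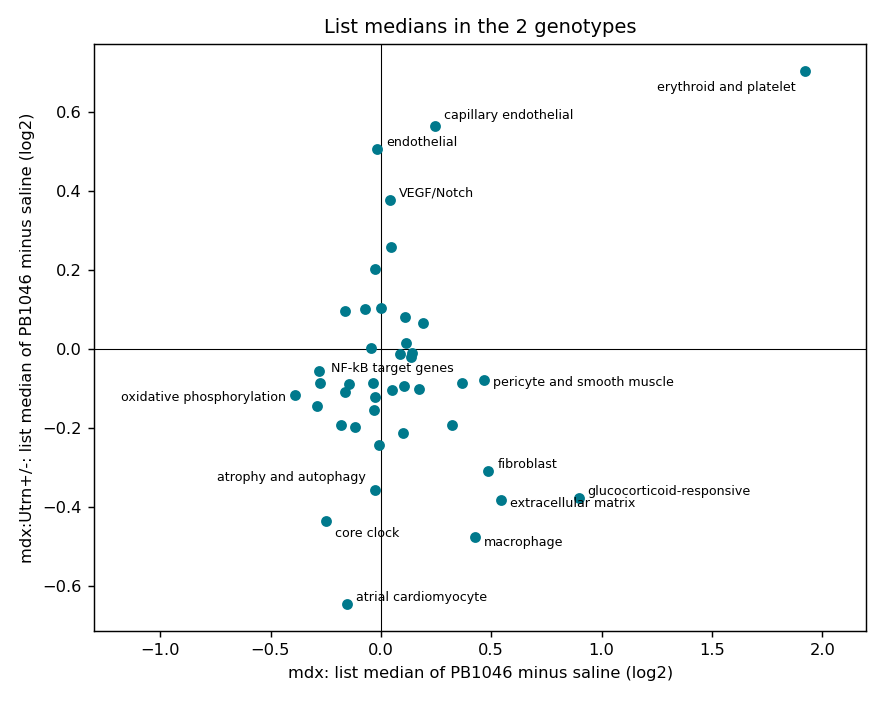
Median log2 difference of PB1046 minus saline for each list with at least 5 tested members, in mdx (x axis) and in mdx:Utrn+/- (y axis). Macrophage, fibroblast, matrix and glucocorticoid-responsive lists lie to the lower right (macrophage markers at 0.42 and -0.48), clock genes at the lower left, and endothelial markers near 0 in mdx and at 0.50 in mdx:Utrn+/-.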

How the data were processed

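Poly-A RNA of isolated cardiomyocytes was sequenced from a stranded library kit, per the labels' protocols. The authors deposited 1 table of 18530 genes on mm10 whose values per library are TPM: every library sums to 1000000, although the table is named as counts. Per the file headers the authors' own comparisons in it are log2 fold changes, average log2 CPM, a likelihood ratio score, p-values and false discovery rates. By their correlation with the TPM (r = -0.949) the authors' deposited log2 fold changes are saline minus PB1046, and the sign is turned here. The submitters' processing notes name edgeR and mm10. The aligner and read counter: not given in the sources used here. TPM carry no depth of their own, but the steps between low values gave back whole reads for 100% of genes, within 0.1 reads, and so the depth and the input of limma-voom.

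TPM were divided by trimmed-mean factors (30% of log ratios and 5% of levels trimmed), put on the scale log2(TPM + 1), which understates changes of low genes, and fitted with limma 3.58.1 in R 4.3.3: a mean per group over 12 libraries, 8 residual degrees of freedom, trend and robust settings, Benjamini-Hochberg adjusted p under 0.05. The limma fit was tested on simulated libraries, drawn around a common profile with planted changes. They had no differences in cell content between libraries, so the test does not show what could be found in the real ones. Same-numbered libraries did not deviate together (r = 0.08, 0.02 and 0.08), so numbers were not taken as pairs. Alternatives were the pseudocount, filter, scaling, spread estimate, voom, moderation, replicate block, covariates, a length correction (lowess span 0.3) and each library left out.

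The comparison and the 46 gene lists were chosen with earlier results of these data known. Named genes follow a rule: Dmd, Utrn, the receptors and Rn45s, in each direction 12 genes by unadjusted p and 12 by size among those without overlap, the 5 smallest p per list and for the genotype difference, and defining markers. Predicted genes, microRNA and small nucleolar RNA genes and pseudogenes were left out of the choices made over all genes. Remaining clock members, Adcy8, Ccl2, Fkbp5, Fos, Gnas, Nfkb1, Nfkbia, Prkaca, Prkar1a, Rela and Zscan18 were added after their values were seen. Promoters come from RefSeq (GRCm38.p6). The values of 1 member of the clock list are not reported here, although it is counted.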

Additional observations from a re-analysis of the deposited data

Results flagged for a closer look

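Of all 12798 genes, 20 (0.156%) had PB1046 libraries wholly on one side of saline in mdx:Utrn+/- and wholly on the other side in mdx. The 5 given here are those among the genes described. They are no independent count, since Midn, Spsb1 and Foxo3 were named for their small p in this very difference and Zscan18 after its values were seen. In limma none of the differences between the responses passed (adjusted p = 0.999 for each). Rhobtb1 was 62.9 to 159 TPM in saline and 24.0 to 57.6 TPM in PB1046 in mdx:Utrn+/-, against 42.3 to 52.4 TPM and 53.7 to 87.1 TPM in mdx, a difference between responses of -1.66 on the log2 scale (95% interval -2.81 to -0.51). Midn, which encodes the nuclear protein midnolin, was 32.1 to 42.5 TPM in saline and 23.1 to 26.1 TPM in PB1046, against 21.9 to 28.9 TPM and 32.4 to 37.8 TPM in mdx (-1.07, -1.59 to -0.55). Foxo3, a transcription factor of atrophy and autophagy genes, was 5.25 to 6.08 TPM in saline and 2.47 to 4.61 TPM in PB1046, against 2.28 to 4.26 TPM and 5.09 to 7.80 TPM in mdx (-1.35, -2.12 to -0.58). Spsb1, an adaptor of ubiquitin ligases, was 15.0 to 20 TPM in saline and 10.4 to 12.3 TPM in PB1046, against 12.5 to 14.9 TPM and 15.6 to 20.6 TPM in mdx (-0.94, -1.46 to -0.41). Zscan18, a zinc finger gene, ran the opposite way at 0.724 to 1.28 TPM in saline and 1.66 to 1.82 TPM in PB1046, against 1.21 to 1.99 TPM and 0.666 to 0.895 TPM in mdx (1.00, 0.41 to 1.58).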

How the results depend on the processing

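The count of genes past the threshold for PB1046 minus saline was 0 under every alternative run. For the difference between genotypes it was 0 except without saline replicate 3, where 1 gene, the pseudogene Tmem181b-ps, passed (0 to 1 over the 6 libraries left out). Genes with ranges apart numbered 1326 to 3754 when a library was left out, since fewer libraries must separate, and 1020 without the filter on low values. Genes at an unadjusted p under 0.05 were 118 to 1154 with a library left out, 490 without that filter, 422 with the endothelial covariate and 364 with the replicate block, which changed no call. Clock members at an unadjusted p under 0.05 were 0 to 9 with a library left out, and 3 without scaling factors. The list median moved by more than the spread between libraries for endothelial markers with their own score as a covariate (-0.0229), which removes their difference by construction. It also moved without scaling factors for cAMP-PKA-CREB components (0.17) and NF-kB components (0.15), where the median of all genes moved from -0.02 to 0.15 as well. Of 852 list medians recomputed 31 moved by more than that spread. The log2 differences of PB1046 minus saline in mdx:Utrn+/- for 98 genes of the naming rule and 10 others kept their direction in the alternatives run for them. Most were named for their values in these same libraries, so this is no independent support. Some came close to 0 with a library left out, such as Sln (-0.002) and Nr1d2 (-0.0171). The log2 differences of Vipr1, Vipr2 and Adcy8, and those of single genes in mdx or between genotypes, were not compared across alternatives. Depth limits the receptor genes, read from 2 to 24 reads a library in mdx:Utrn+/-.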

Other observations

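Gene groups not described above gave further values for PB1046 in mdx:Utrn+/-, and none of their members passed. Erythroid and platelet markers were higher in 9 of 9 (median log2 difference 0.70). Hba-a1, an alpha globin, was 69.0, 22.2 and 6.40 TPM in saline and 32.6, 111 and 12.3 TPM in PB1046, and the median was -0.24 without PB1046 replicate 2. Atrial cardiomyocyte markers were lower in 6 of 6 (median -0.65), where Sln, which restrains the calcium pump, was 3.67, 19.6 and 0.278 TPM in saline and 0.341, 3.42 and 1.44 TPM in PB1046, and Myl4, the atrial light chain, 20, 59.5 and 6.87 TPM and 10.5, 17.2 and 6.81 TPM. Without saline replicate 2 the atrial median was -0.11. Atrophy and autophagy genes were lower in 16 of 20 (median -0.36, and -0.11 without PB1046 replicate 2), with Map1lc3a, which encodes an autophagosome protein, at 2090, 1812 and 1372 TPM in saline and 1575, 992 and 1077 TPM in PB1046. Interferon response genes were higher in 24 of 28 at a small median (0.10), which was -0.14 without PB1046 replicate 2. Antigen presentation genes were lower in 14 of 15 (median -0.24, and -0.0026 without saline replicate 1), led by H2-Ab1, a class II gene, at 208, 42.3 and 40.4 TPM in saline and 32.7, 44.6 and 38.8 TPM in PB1046, where saline replicate 1 alone stood high.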
